A study of Sus scrofa with 2 samples.

Results

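Calmodulins and the kinases that calmodulin switches on were described in 1 brain library and 1 liver library of Rongchang pigs, a Chinese domestic breed of Sus scrofa. The 9 genes were CALM2, CALM3, CAMK2A, CAMK2B, CAMK2D, CAMK2G, CAMK4, CAMKK2 and CAMKV, out of 21441 genes in the table. They were found by symbol, by the product text where the row carries only a LOC number, or by gene number, and 10 rows were summed to the 9 genes. CAMK2B, whose row has no product text, and CALM2, whose row is called only calmodulin-like, were placed by gene number alone. Both tissues were frozen pieces, for which no treatment, age, sex, brain region or animal of origin is stated. With 1 library per tissue there was no replicate check and no test, and every interval below is a 95% interval that covers counting error only. Total counts were 23796843 for brain and 31724498 for liver, and both sample titles carry the same lane and barcode label.

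Calmodulin is a small protein that binds calcium and then binds and activates other proteins. Its genes encode 1 identical protein in mammals from separate loci, so that their mix can differ between tissues while the product stays the same. The CaM kinases turn this signal into phosphorylation. CaM kinase II is a ring-like complex built from alpha, beta, delta and gamma subunits, each from its own gene, and in neurons it is known for its part in synaptic plasticity. In hepatocytes CaM kinase II is known for its part in glucose output under glucagon.

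Levels are given as CPM, counts per 1000000 after TMM scaling, where 1 CPM equals 34.9 brain counts or 21.6 liver counts. CPM values are not corrected for gene length, so they are compared between tissues for each gene and not between genes. The call of a gene as higher in one tissue required that its log2 ratio of CPM plus 1, brain over liver, be at least 2 or at most -2, a 4-fold difference. Folds are ratios of CPM without the added 1.

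The tissue labels were set against marker genes. Of 8 hepatocyte markers, 8 were 4-fold or more higher in liver, summing to 437484 CPM there and 317 in brain. Neuron markers with a row, 6 of 8, summed to 4239 CPM in brain and 7.73 in liver, where none was at 0. Their summed liver counts were 0.113% of their summed brain counts, and single markers ranged from 0.0141% for STMN2 to 0.426% for GAD2. Astrocyte markers summed to 1205 CPM in brain and 20.5 in liver, and oligodendrocyte markers to 2707 and 29.8, with AQP4 and MOG at 0 counts in liver. Endothelial and blood cell markers summed higher in liver, at 424 CPM against 76.3 and 2351 against 99.8. A single blood cell marker gave 2027 of the 2351 CPM. The median log2 ratio of the blood cell list was -1.70, or -1.03 with plain library size. Of the 5 endothelial markers, 3 were called in liver and 1 in brain, but 1 in each tissue with plain library size. Microglia and Kupffer cell markers went both ways. They summed to 127 CPM in brain and 1245 in liver, of which CD5L, a macrophage gene, gave 1066, while 3 of the 6 were higher in brain and P2RY12 was called there. Muscle and heart markers had no direction that held under every scaling, with 74.0 CPM in brain and 110 in liver, where ACTA2 gave 90.1, but 109 and 74.8 with plain library size. Of their 5 passing genes, 2 were called in brain and 0 in liver. In tissue pieces, fewer cells of a type and less RNA per cell cannot be told apart.

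All 9 genes had a higher level in brain than in liver, and 4 of them were called at 4-fold or more: CALM3, CAMK2B, CAMK4 and CAMKV. Among the 15568 genes of the whole table that reached 1 CPM in either library, 14.6% were called higher in brain and 26.0% in either direction. None of the 9 was called higher in liver, against 11.4% of all genes. The median log2 ratio of the 9 was 1.84, beside 0.02 for all genes. Scaling by plain library size moved the median of all genes to 0.98 and that of the 9 to 2.92. All 9 were then called higher in brain, against 24.1% of the 15818 genes that passed at that scaling, and 0 higher in liver, against 6.02%. The median of the 9 also rests on the choice of rows for CAMK2A, described below, and was 3.81 with only the row matched by gene number.

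**Figure D1:**
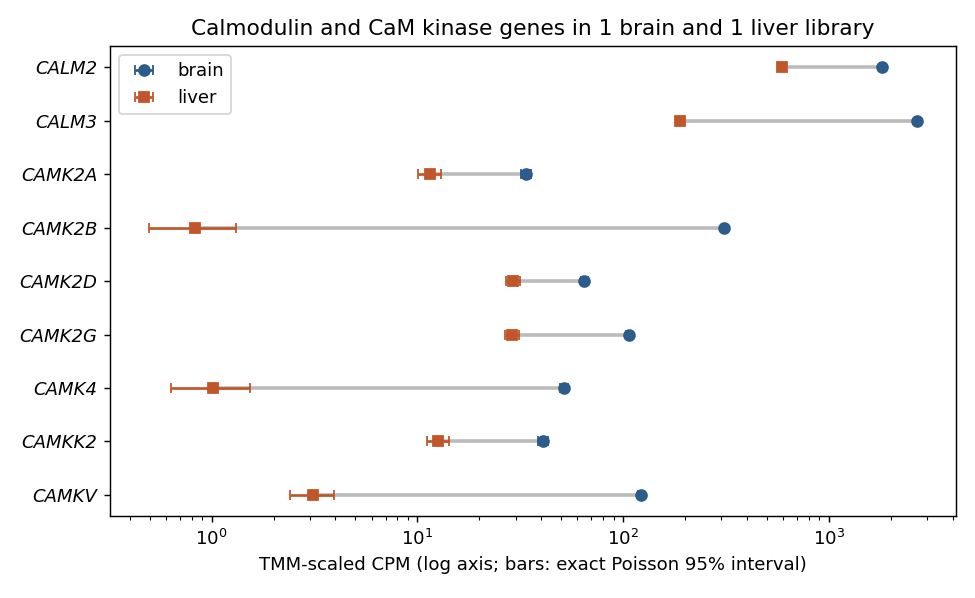
Level of each of the 9 genes in TMM-scaled CPM on a log axis, with brain as circles, liver as squares and exact Poisson 95% intervals as bars. Every circle lies to the right of its square, and with the CAMK2A rows summed the gap is widest for CAMK2B, at 308 CPM in brain and 0.833 in liver.

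CALM3 and CALM2, the calmodulin genes of the set, differed in how far apart the tissues were. CALM3, on chromosome 6, had 93183 counts in brain and 4081 in liver, or 2667 and 189 CPM. It was 14.1-fold higher in brain (13.7 to 14.6). CALM2, on chromosome 3, had 63653 counts in brain and 12808 in liver, or 1822 and 593 CPM, which is 3.07-fold (3.02 to 3.13) and below the threshold.

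The mix of CALM2 and CALM3 transcripts differed between the libraries. CALM2 supplied 40.6% of the counts of this pair in brain (exact binomial interval 40.3 to 40.8) and 75.8% in liver (75.2 to 76.5), and CALM3 the rest, 59.4% and 24.2%. Expressed as a ratio, there were 68.3 CALM2 counts per 100 CALM3 counts in brain (67.6 to 69.0) and 314 in liver (303 to 325). The odds that a count of the pair came from CALM2 were 4.59 times higher in liver (4.43 to 4.77), a comparison in which gene length and scaling cancel. Together the pair made up 0.659% of brain counts and 0.0532% of liver counts, or 4489 and 782 CPM, a 5.74-fold difference (5.65 to 5.84). The calmodulin loci have similar coding sequences, and how the authors' counting split reads between them is not given in the sources used here.

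CAMK2B, the beta subunit, which is known for tying the kinase to actin, had the widest gap of the 9 when the CAMK2A rows are summed. Its row on chromosome 18 held 10746 counts in brain and 18 in liver, or 308 and 0.833 CPM, a 369-fold difference (234 to 623). The liver counts were 0.168% of the brain counts, within the range of the neuron markers given above. Whether carry-over or a few neural cells supplied those liver counts was not tested.

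CAMK2D and CAMK2G, the subunit genes expressed widely outside the brain, were measured well in both tissues. CAMK2D, on chromosome 8, had 2265 counts in brain and 630 in liver, or 64.8 and 29.2 CPM, a 2.22-fold difference (2.03 to 2.43). CAMK2G, on chromosome 14, had 3713 and 626, or 106 and 29.0 CPM, and its 3.67-fold difference, with a lower bound of 3.37, was just under the threshold. Relative to CAMK2G, CAMK2D was lower in brain, with 61.0 CAMK2D counts per 100 CAMK2G counts (57.9 to 64.3) and 100.6 in liver (90.0 to 113).

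CAMK2A, the alpha subunit, which is the textbook forebrain CaM kinase, rested on a pair of rows that disagreed. The row LOC100626014, whose gene number is that of CAMK2A, had 785 counts in brain and 1 in liver, a 486-fold difference with a wide interval (86.9 to 19202). The row LOC100626459, which only its product text ties to the alpha subunit, had 398 counts in brain and 247 in liver, with a log2 ratio of 0.00. Both lie on chromosome 2, and the deposited lengths are 58324 bp for the first and 141804 bp for the second. Listed between them are SLC6A7, a proline transporter at 963 and 4 counts, a CDX1 row at 1 and 0, and LOC100626192, a proline transporter-like row at 15 and 0. The table gives no positions, so whether the longer row spans its neighbours was not tested. Summed as the rule asks, CAMK2A had 1183 counts in brain and 248 in liver, or 33.9 and 11.5 CPM, 2.95-fold (2.57 to 3.40). With the row matched by gene number alone its log2 ratio was 4.49 in place of 1.48, past the threshold, and 5 of the 9 genes were called higher in brain.

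**Figure D2:**
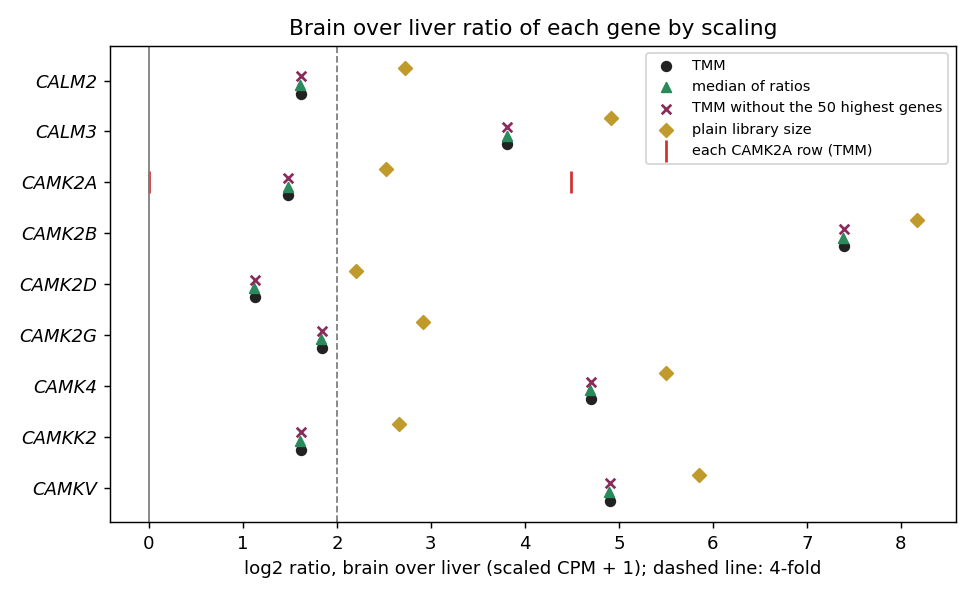
Log2 ratio of brain over liver for each gene under TMM, median of ratios, TMM without the 50 highest genes and plain library size, with red ticks for the separate CAMK2A rows under TMM. CAMK2A's ticks stand at 0.00 and 4.49, and plain library size moves all 9 genes past the dashed 4-fold line at 2.

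The subunit mix of CaM kinase II differed between the libraries. In brain, CAMK2B took 60.0% of the summed CAMK2 counts (59.3 to 60.7), CAMK2G 20.7% (20.1 to 21.3), CAMK2D 12.6% (12.2 to 13.1) and CAMK2A 6.61% (6.25 to 6.98). In liver, CAMK2D took 41.4% (38.9 to 43.9), CAMK2G 41.1% (38.6 to 43.7), CAMK2A 16.3% (14.5 to 18.2) and CAMK2B 1.18% (0.702 to 1.86). The odds of a CAMK2 count coming from CAMK2B were 125 times higher in brain (79.0 to 212). For CAMK2D the odds were 4.88 times higher in liver (4.36 to 5.46), and for CAMK2G 2.67 times (2.39 to 2.98). The CAMK2A share depends on the choice of rows. With the row matched by gene number alone it was 4.48% in brain and 0.0784% in liver, and CAMK2D and CAMK2G then took 49.4% and 49.1% of the liver counts. These are shares of counts, not of molecules, since subunit transcripts of different length give different numbers of reads.

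**Figure D3:**
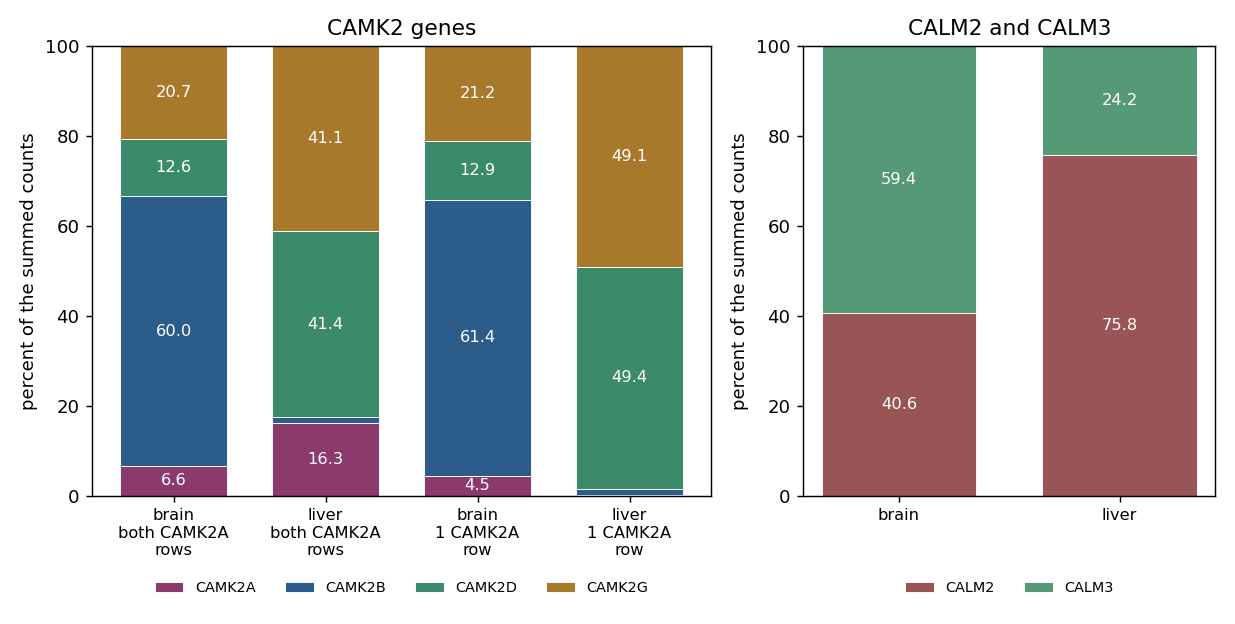
Percent of the summed CAMK2 counts (left, with both CAMK2A rows or only the row matched by gene number) and of the summed CALM2 and CALM3 counts (right) that each gene supplied in each library. CAMK2B fills 60.0% of the first brain bar and 1.18% of the liver bar beside it, and CALM2 goes from 40.6% in brain to 75.8% in liver.

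All CAMK2 genes together reached 513 CPM in brain and 70.4 in liver, a 7.28-fold difference (6.91 to 7.67), or 15.7-fold with plain library size. The gap widens with the CAMK2A row matched by gene number alone. The summed counts were then 17509 in brain and 1275 in liver, in place of 17907 and 1522. CAMK2N1 encodes an inhibitor that binds active CaM kinase II. Its row had 57629 counts in brain and 6031 in liver, or 1650 and 279 CPM, 5.91-fold higher in brain (5.76 to 6.07), and it was called. Per 100 CAMK2 counts there were 322 CAMK2N1 counts in brain (316 to 327) and 396 in liver (375 to 419), a ratio chosen after the values were seen.

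CAMK4, a mostly nuclear kinase known for phosphorylating the transcription factor CREB, had 1799 counts in brain and 22 in liver. At 51.5 and 1.02 CPM it was 50.6-fold higher in brain (33.3 to 80.9). CAMKK2, the upstream kinase that activates CAMK1, CAMK4 and AMPK, had 1425 and 273 counts, or 40.8 and 12.6 CPM, and its 3.23-fold difference (2.83 to 3.69) was below the threshold. Set against CAMK4 and its 22 liver counts, CAMKK2 was relatively higher in liver. There were 79.2 CAMKK2 counts per 100 CAMK4 counts in brain (73.8 to 85.0) and 1241 in liver (803 to 2013). This ratio was chosen after the values were seen. It does not extend to the other targets. CAMK1 was 3.39-fold higher in brain (3.03 to 3.79), close to CAMKK2 itself. AMPK and related genes, given below, had a median log2 ratio of -0.59. CAMKV, a kinase-like protein without catalytic activity that is found on vesicles and in dendritic spines, had 4261 counts in brain and 67 in liver. Its levels of 122 and 3.10 CPM make a 39.3-fold difference (30.9 to 50.9). The liver counts of CAMK4 and CAMKV were 1.22% and 1.57% of their brain counts, above the 0.426% of the highest neuron marker.

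Other kinases listed with the family lay on both sides. A place in this list does not mean that calmodulin activates the kinase. CAMK1, CAMK1D, CAMK1G and PNCK, the CaM kinase I group, were all on the brain side. For this list and those below, the shares of all genes called were 14.6% in brain and 11.4% in liver. With plain library size they were 24.1% and 6.02%. Of 16 listed, 15 passed 1 CPM, 5 were called higher in brain and 0 in liver, with a median log2 ratio of 1.51. Plain library size gave 10 calls in brain and a median of 2.48. PNCK, a CaM kinase I relative, had 3290 counts in brain and 5 in liver, 407-fold (174 to 1254). DCLK1, a doublecortin-like kinase of growing neurites, was 162-fold higher in brain (90.6 to 326), and CAMK1G, another CaM kinase I gene, 28.4-fold (19.1 to 44.1). DCLK3 and DCLK2 had log2 ratios of 2.68 and 3.31. CAMK1 itself, at 58.4 CPM in brain and 17.3 in liver, was at 1.70, and CASK, a synaptic scaffold with a kinase-like domain, at 1.40. DAPK1 was at -0.64, which plain library size turned to 0.42. MAPKAPK2 (-1.39), MAPKAPK3 (-1.60) and PSKH1 (-1.55) lay on the liver side under every scaling run, below 4-fold. So did DAPK2 (-1.09), with 18 counts in brain and 48 in liver. Without the added 1, its liver CPM was 4.31 times its brain CPM (2.46 to 7.88). In the list of calmodulin and calmodulin-like genes, 4 of 6 passed, 1 was called in brain (CALM3) and 0 in liver, with a median of 1.31 that became 2.01 with plain library size and 2.54 with a pseudocount of 0.1. CALML4 had 9 counts in brain and 86 in liver, a log2 ratio of -1.99. Without the added 1, its liver CPM was 15.4 times its brain CPM (7.77 to 34.9). The pseudocount of 0.1 gave this list 2 calls in brain and 1 in liver. CALML6 had 35 counts in brain and 0 in liver, so that it was at least 7.22-fold higher in brain against a floor of 3 counts. The exact interval of that ratio, which also covers the error of the brain count, starts at 5.56.

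Genes listed as CaM kinase inhibitors, phosphatases and anchors lay nearer to the middle. This list also holds genes that do not act on these kinases alone, such as CAMTA2 and AKAP5. Of 13 listed, 11 passed, 3 were called higher in brain and 0 in liver (median 0.86), while plain library size gave 5 and 0 with a median of 1.95. Those called were CAMK2N1, CAMTA2, a calmodulin-binding transcription activator at 3.01, and AKAP5, a postsynaptic anchor of calcineurin and protein kinase A, at 2.65. PPM1E, a CaM kinase phosphatase, was at 1.89, and its relative PPM1F at -0.26, which became 0.76 with plain library size.

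Calcineurin is the phosphatase that calmodulin activates, and its catalytic genes differed by degree. PPP3CA had 368 CPM in brain and 43.2 in liver, 8.51-fold (7.97 to 9.11), and PPP3CB at 191 and 43.7, 4.38-fold (4.09 to 4.70). The third catalytic gene, PPP3CC, was at 39.8 and 13.0 CPM, and its 3.06-fold difference (2.69 to 3.49) was not called. RCAN1, a calcineurin inhibitor, was at 1.76 and CHP1 at 0.03. In all, 3 of 12 passing genes of this list were called in brain and 0 in liver (median 0.73), the remaining call being RCAN2 at 3.47, chosen after its value was seen. Plain library size gave 6 calls and a median of 1.69, and a pseudocount of 5 a median of 0.46.

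Proteins that hold calmodulin at the membrane or cytoskeleton gave the widest spread of log2 ratios. GAP43, a growth cone protein that binds calmodulin when calcium is low, was at 568 CPM in brain with 4 counts in liver (8.91). SPTAN1, the alpha chain of nonerythroid spectrin, was at 2.24, and BASP1 and MARCKS, which bind calmodulin at the membrane, were at 1.44 and 1.48. IQGAP2, a scaffold abundant in liver, went against these, at 10.5 CPM in brain and 247 in liver, 23.4-fold higher in liver (21.1 to 26.1). Of the 10 passing genes, 3 were called in brain and 1 in liver (median 1.51), while plain library size gave 8 and 1 with a median of 2.56.

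Among other enzymes that calmodulin activates, 9 of 23 were called in brain and 1 in liver (median 1.39). Plain library size gave 14 and 0 calls, and a pseudocount of 5 gave 5 and 0 (median 0.77). ATP2B1, a plasma membrane calcium pump, was at 279 and 36.3 CPM (2.91), and ITPKA, an inositol trisphosphate kinase of dendritic spines, was at 1.61. MYLK, the myosin light chain kinase, was at -1.44. EEF2K, the elongation factor kinase, was at -1.01, which plain library size turned to 0.07. PHKA2, the liver form of the phosphorylase kinase alpha subunit, was 4.91-fold higher in liver (4.31 to 5.61), with a log2 ratio of -2.17 that plain library size put at -1.13.

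Synaptic partners and substrates of CaM kinase II were called in brain for 16 of 18 passing genes and in liver for 0 (median 5.13). GRIA2, an AMPA receptor subunit, was at 421 and 0.324 CPM, SYN1, a synapsin, at 444 and 4.91, and DLG4, the scaffold PSD-95, at 369 and 4.58. The pair below 4-fold was KALRN (1.36) and SHANK3 (1.28), the latter chosen after its value was seen. Neuronal calcium sensors and buffers, relatives of calmodulin by their calcium-binding EF-hands, were called in brain for 12 of 17 and in liver for 0 (median 4.09, or 2.57 with a pseudocount of 5). VSNL1, KCNIP4, S100B and NCALD were at 5.07, 7.82, 6.83 and 5.38.

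Calcium channels and pumps that CaM kinase II acts on in other tissues were less far apart, with 2 of 9 called in brain and 0 in liver (median 0.54). That median ranged from 0.22 with a pseudocount of 5 to 1.13 with plain library size. RYR2, a calcium release channel, was at 166 and 1.39 CPM, 119-fold higher in brain (83.6 to 177), and CACNA1C, a voltage-gated channel, at 2.80. ATP2A2, the calcium pump of the endoplasmic reticulum, was at 0.54. ITPR1, the inositol trisphosphate receptor, was at -0.16, or 0.92 under plain library size.

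Downstream of CAMK4, genes of the CREB pathway were called in brain for 4 of 16 and in liver for 1 (median 1.21). Plain library size gave 9 and 0 (median 2.12), and a pseudocount of 5 gave 2 in brain (median 0.65). MEF2C, a transcription factor, was at 3.98, and EGR1 (4.02), BDNF (2.75) and NPAS4 (2.06), activity-dependent genes, were chosen after their values were seen. HDAC5, a CaM kinase substrate, was at 1.23. CREM, a CREB relative, was 6.85-fold higher in liver (6.19 to 7.60), with a log2 ratio of -2.69 that plain library size put at -1.62. CRTC2, the CREB coactivator of gluconeogenesis, was at -0.40, or 0.69 under plain library size.

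Downstream of CAMKK2, 0 of 11 AMPK and related genes were called in either tissue, with a median of -0.59 that became 0.50 with plain library size. PRKAG1 was at 44.6 and 67.5 CPM (-0.59) and STK11, the other main AMPK-activating kinase, at 28.3 and 46.3 (-0.69), and plain library size put them at 0.50 and 0.39. PRKAG2, an AMPK gamma subunit, was at 1.14 and ACACA, the acetyl-CoA carboxylase that AMPK phosphorylates, at 0.62.

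**Figure D4:**
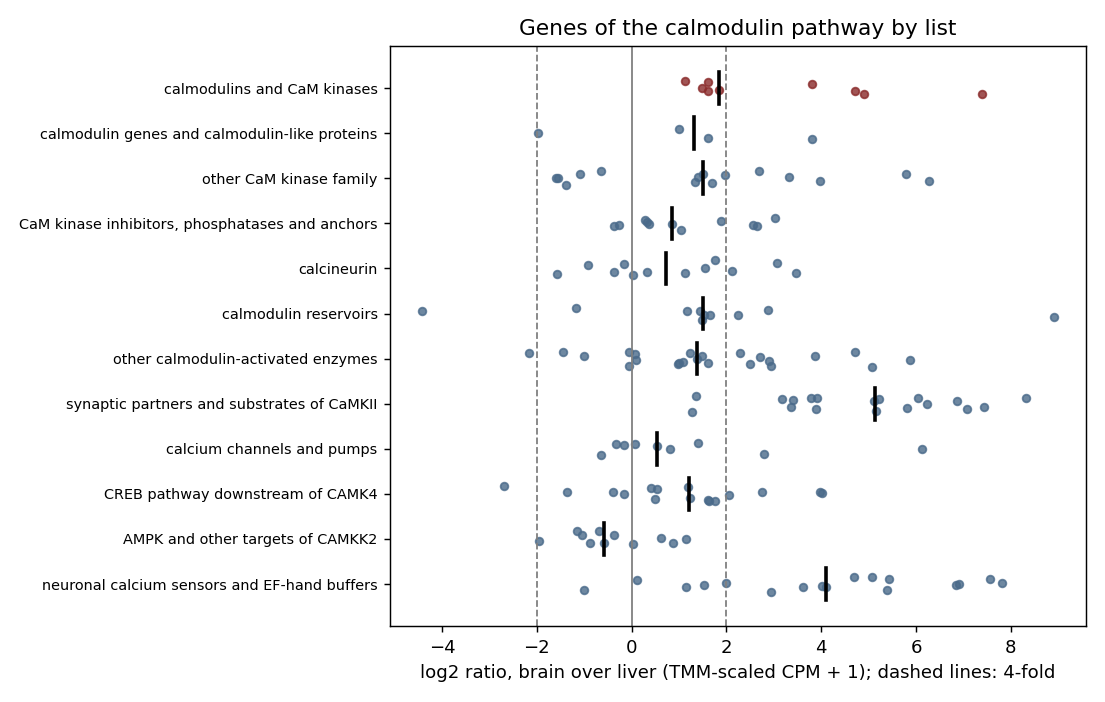
Log2 ratio of brain over liver for every gene at 1 CPM or more, 1 point per gene, in the 9 described genes (top) and in each list of the pathway, with medians as black bars. The synaptic partners and the calcium sensors have medians of 5.13 and 4.09, while the AMPK list has its median at -0.59.

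In all pathway lists together, without the 9 genes, 149 of 169 listed genes had a row and 144 passed 1 CPM. Of these, 57 were called higher in brain, against 14.6% of all genes, and 3 in liver, IQGAP2, PHKA2 and CREM, against 11.4%. The median was 1.49 beside 0.02 for all genes. Synaptic partners of CaM kinase II gave 16 of the 57 brain calls, and neuronal calcium sensors and buffers 12. Those lists were picked as synaptic or neuronal genes, so their brain calls followed in part from the choice and do not stand for the pathway as a whole. Under plain library size the calls were 88 and 1 of 145 passing genes, against 24.1% and 6.02% of all genes. The median was then 2.36 beside 0.98. Neuron markers moved with these lists, from 4239 summed CPM in brain to 7.73 in liver, and their part in the counts was not tested.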

How the data were processed

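The authors deposited 1 table of raw counts per gene with a brain and a liver column. That they are counts was read from the values, whole numbers with unequal totals. TopHat alignment to Sscrofa10.2 (susScr3) is recorded per the submitters' processing notes. Which program counted the reads, and with which strand setting, is not given in the sources used here. The deposited gene length was read as genomic span and corrects nothing. Of 21817 rows, 7964 were named by the table, 6594 by gene number, 236 by a unique synonym, 21 by accession and 1 by product text, through a RefSeq table of Sscrofa11.1 used for names and chromosome numbers. Rows were summed per gene. TMM factors came from edgeR 4.0.16 under R 4.3.3, whose tests were not used. Intervals are exact conditional binomial for folds, Clopper-Pearson for shares and Poisson for levels (scipy 1.17.1), with conditional exact intervals for CAMK2 odds ratios and log-normal ones for calmodulin odds ratios. The calling procedure was tested on simulated data, in which both libraries shared the same mean profile apart from a set of altered genes. That simulation lacks the composition difference between brain and liver, so it cannot decide between scalings. The genes, 11 pathway lists and 8 marker lists were chosen with earlier results of these data known. Named genes are the 9, any gene of the calmodulin, kinase and regulator lists, the 4 highest by mean level of each other list, and members at 4-fold against a list's median. Some genes are not reported here and were left out of the lists, their counts and medians after the values were seen. Alternatives covered pseudocount, filter, fold, scaling and row matching.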

Additional observations from a re-analysis of the deposited data

Results flagged for a closer look

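Rows with calmodulin or CaM kinase product text that could not be tied to a gene by number, and so entered no comparison, held more than the floor of 3 counts. LOC100513102, a calmodulin-like row on chromosome 8, had 505 counts in brain and 7 in liver, 14.5 and 0.324 CPM. LOC100519883, called calmodulin-like protein 4-like, had 790 in brain and 127 in liver, a log2 ratio of 1.78, while the CALML4 row itself was at -1.99. A pair of CAMK1D-like rows, LOC100736656 and LOC100622435, had 244 and 206 counts in brain and 40 and 52 in liver. The CAMK1D row had 193 and 34. Whether these rows hold reads of the named genes was not tested.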

How the results depend on the processing

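All 9 genes were above 0 in log2 ratio under every pseudocount and scaling run, with the highest row per gene and without product-matched rows, and 0 were called higher in liver under any setting. Without rows matched by gene number, CALM2 and CAMK2B had no row and CAMK2A was at -0.0058. The number called higher in brain was 4, but 9 with plain library size and 9 at 2-fold, 5 with the highest row per gene or without product-matched rows, and 3 without rows matched by gene number, a setting added after the data were seen. Of all genes, 14.6% were called in brain in the main run and 24.1% with plain library size. At 2-fold 4284 of 15568 genes were called in brain, and with the highest row per gene 2286. All genes were not counted without product-matched rows or without rows matched by gene number. Their median of 1.84 became 1.71 with a pseudocount of 5, 2.92 with plain library size, and 3.81 with the highest row or without the product-matched row, since CAMK2A then stood at 4.50 or 4.49. The CAMK2 shares moved with that row alike in both settings, to 4.48% CAMK2A and 61.4% CAMK2B in brain and 0.0784% CAMK2A, 49.4% CAMK2D and 49.1% CAMK2G in liver. CAMK2N1 counts per 100 CAMK2 counts became 329 in brain and 473 in liver. The mix of CALM2 and CALM3 did not change, as each gene has 1 row.

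For the pathway genes, 57 in brain and 3 in liver became 91 and 17 at 2-fold and 88 and 1 with plain library size. Liver calls were 5 with a pseudocount of 0.1 and 1 at 8-fold. Their median of 1.49 was 1.76 and 1.02 with pseudocounts of 0.1 and 5, 1.61 with a 5 CPM filter and 2.36 with plain library size. For all 15568 genes that passed, 2278 in brain and 1767 in liver became 1230 and 1116 with a pseudocount of 5. The calls were 4284 and 3800 at 2-fold, 1329 and 887 at 8-fold, and 3819 and 953 of 15818 genes with plain library size. Counts per coding length were not run, because no transcript or protein lengths were used here. No paired analysis was possible because each tissue has 1 library. Depth limits the liver values of CAMK2B, CAMK4 and the CAMK2A row with 1 count.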
